A study of Mus musculus with 16 samples.

Results

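The 9 genes described here encode proteins of the BCL2 family: Bcl2, Bcl2l1, Mcl1, Bcl2a1b, Bcl2a1d, Bcl2l11, Bax, Pmaip1 and Bbc3. They were found by gene symbol among the 31053 genes of the lung and mesenteric lymph node (MLN) tables and the 32285 genes of the table of mediastinal lymph node (medLN) and MLN cells, and each had a UMI (a counted RNA molecule) in all 12 samples. The cells were CD4+ T cells sorted from IL-4eGFP reporter (4get) mice at day 10 after infection with Nippostrongylus brasiliensis (Nb), a parasitic worm whose larvae pass through the lung before they settle in the gut. In the first run IL-4eGFP+ cells came from lung and MLN of 2 mice aged 13 weeks, with 1 library per organ and mouse. In the second run IL-4eGFP+ and IL-4eGFP- cells came from medLN and MLN of 2 mice aged 10 weeks, and hashtag antibodies marked organ and mouse. All mice were infected and all carried the reporter, in which GFP marks cells that have transcribed the Il4 locus. Uninfected mice were not analysed here.

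In the second run all IL-4eGFP+ cells shared 1 library and all IL-4eGFP- cells another, so that sort gate and library cannot be told apart, whereas organs and mice were compared within a library. Sums per sample held 2789854 to 14442133 UMIs from 416 to 2462 cells. The markers of CD4+ T cells were present in every sample, at 3876 to 5678 CPM (the UMIs of a gene scaled to the same total in every sample) for the list of 6 genes together. Il4 was at 153 to 188 CPM in the 4 IL-4eGFP+ node samples and at 0 to 0.399 CPM in the 4 IL-4eGFP- samples. Perfused lungs, which keep some cells from the blood vessels, were digested with enzymes and the lymph nodes were not, and a list of 14 genes that respond to tissue dissociation summed to 9165 and 9688 CPM in the lung libraries against 877 and 1217 CPM in the MLN libraries of the same run. Organ and digestion cannot be told apart, and this applies to each difference between lung and MLN below.

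BCL2 family proteins decide whether the outer membrane of mitochondria is opened, the step that releases cytochrome c and commits a cell to apoptosis. Bcl2, Bcl-xL (Bcl2l1), Mcl-1 and A1 (Bcl2a1 genes) hold the membrane closed, Bax is an effector that opens it, and Bim (Bcl2l11), Noxa (Pmaip1) and Puma (Bbc3) are BH3-only proteins that bind and neutralise the survival proteins. In T cells Bcl2 is maintained by IL-7 signals in resting cells, A1 is induced by antigen receptor and NF-κB signals, and Bim removes effector cells at the end of a response.

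The A1 genes are near-identical copies on mouse chromosome 9. Bcl2a1b lies at chr9:89199209-89207827 on the plus strand and Bcl2a1d at chr9:88723285-88731914 on the minus strand (GRCm38, GENCODE annotation), and both are protein coding. Because reads that match both copies equally well are hard to assign, the level of each copy is uncertain. Of the 90-base windows of the annotated transcripts, 63.9% of those of Bcl2a1b and 38.4% of those of Bcl2a1d occurred in no other copy. Another copy, Bcl2a1a, had at most 1.40 CPM in any sample although 387 of its 730 windows were its own. Where the reads lay along the transcripts was not tested, so the level of this copy is uncertain too. The sequence before the first annotated exon of Bcl2a1b and Bcl2a1d, within 250 bases of the RefSeq start, is shown because both genes had the same sign in every comparison in which either was called. Capitals mark TGANTCA, a loose AP-1 pattern in which N is any base. In these genes it reads TGAATCA.
Bcl2a1b, chr9:89199023-89199208, plus strand, GRCm38.p6: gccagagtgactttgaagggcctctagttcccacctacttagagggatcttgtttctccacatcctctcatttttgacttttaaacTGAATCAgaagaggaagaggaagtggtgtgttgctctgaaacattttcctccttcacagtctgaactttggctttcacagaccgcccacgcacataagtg
Bcl2a1d, chr9:88731915-88732100, minus strand, GRCm38.p6: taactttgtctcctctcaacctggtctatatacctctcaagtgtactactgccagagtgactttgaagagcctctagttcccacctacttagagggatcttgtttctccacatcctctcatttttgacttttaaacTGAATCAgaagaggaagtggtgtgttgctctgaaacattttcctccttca
The windows of 250 bases were 99.0% identical over 200 aligned bases, with the ends left free. This value does not count a short gap just after the TGANTCA match, where Bcl2a1d lacks bases that Bcl2a1b has. This loose pattern, searched on both strands, was found in 6.75% of the 32851 promoter windows of the same length in the RefSeq table. The window of Bcl2a1a, the copy with few assigned UMIs, held TGANTCA as well. No match to the κB consensus was found in the 3 windows, against 3.90% of all windows with one.

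Of the other members, Bcl2 lies at chr1:106538178-106714274 (minus strand), Mcl1 at chr3:95658788-95663176 (plus), Bcl2l1 and Bcl2l11 at chr2:152780668-152831728 (minus) and chr2:128126038-128162547 (plus), and Bax and Bbc3 at chr7:45461697-45466898 (minus) and chr7:16308393-16318205 (plus), all in GRCm38. The promoters of Bcl2l11 and Bbc3 are shown for the FOXO motif GTAAACA, in capitals on either strand, since both of these genes and the FOXO genes were lower in the same cells (below). The remaining BH3-only member, Pmaip1, was called higher in those cells, and so was Bad, a BH3-only gene outside the members (below). No position or promoter window of Pmaip1 is given here. A link between the FOXO genes and these motifs was not tested. Each gene has further annotated starts without the motif, and 3.17% of all windows held it. No window of Bcl2, Mcl1 or Bcl2l1, which were also called lower in IL-4eGFP+ cells (below), held the motif. Against activated IL-4eGFP- cells alone, neither Bcl2l11 nor Bbc3 was called (below). A window of Bbc3 at another start held 2 overlapping matches to the κB consensus, and a window of Bcl2l1 held 1.
Bcl2l11, chr2:128125788-128126037, plus strand, GRCm38.p6: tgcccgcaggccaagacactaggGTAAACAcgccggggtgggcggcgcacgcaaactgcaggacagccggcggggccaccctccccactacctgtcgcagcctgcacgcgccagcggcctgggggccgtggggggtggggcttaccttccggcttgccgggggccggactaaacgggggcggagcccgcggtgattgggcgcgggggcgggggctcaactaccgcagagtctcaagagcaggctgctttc
Bbc3, chr7:16310011-16310258, plus strand, GRCm38.p6: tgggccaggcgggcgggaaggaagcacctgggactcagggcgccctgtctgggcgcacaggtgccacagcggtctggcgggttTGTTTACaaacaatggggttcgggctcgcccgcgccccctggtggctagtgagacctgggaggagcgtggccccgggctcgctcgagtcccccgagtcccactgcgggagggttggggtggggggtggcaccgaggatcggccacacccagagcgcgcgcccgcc
A match in these letters describes the sequence and does not show that a factor was bound.

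The comparison of sort gates asked how IL-4eGFP+ cells of the lymph nodes differed from other CD4+ T cells of the same nodes. The authors call IL-4eGFP+ CD4+ cells Th2 cells. By their account this label likely takes in NKT cells and cells that do not end as full Th2 cells. IL-4eGFP+ cells held far less Bcl2 RNA and far more Bcl2a1b and Bcl2a1d RNA than IL-4eGFP- cells, with less Mcl1, Bcl2l11 and Bbc3 and slightly more Bax. All 9 genes passed the test, 4 of them higher and 5 lower in IL-4eGFP+ cells (edgeR quasi-likelihood test, Benjamini-Hochberg adjusted over all genes). Because UMIs were summed over cells, fewer cells with a gene's RNA and less RNA per cell cannot be told apart. For Mcl1, UMIs per cell overlapped between gates, at 0.913 to 1.14 in IL-4eGFP+ and 1.10 to 1.30 in IL-4eGFP- samples. Those of Bbc3 overlapped too (0.0287 to 0.0454 and 0.0316 to 0.0467). Bcl2l11 (0.0517 to 0.0753 and 0.0813 to 0.0938) and Bax (1.11 to 1.39 and 0.572 to 0.658) kept the order of the CPM. Counts per cell were not tested. In this comparison 31.8% of the 11535 genes tested were called higher and 30.3% lower.

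Bcl2, the survival factor of resting T cells, was at 39.1 and 46.0 CPM in IL-4eGFP+ cells of medLN from mouse 1 and 2 and at 35.5 and 36.3 CPM in those of MLN. In IL-4eGFP- cells it was at 248 and 258 CPM in medLN and at 240 and 277 CPM in MLN. The 2 gates were far apart, and organs and mice within a gate differed little. Bcl2 was thus 7.46-fold lower in IL-4eGFP+ cells, with a log2 fold change of -2.90 ± 0.066 (SE, n = 4 samples per gate, edgeR adjusted p = 1.82e-10). Here and below, the SE of an edgeR value was worked back from the F statistic of its test. It is the absolute log2 fold change divided by the square root of F. The 4 samples of a gate were medLN and MLN of the same 2 mice, so SE and p do not measure a spread among 4 animals. This holds for every node comparison over both organs. With the mouse and organ sample as block all 9 members were called as well, 4 higher and 5 lower.

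The A1 genes had the opposite order. Bcl2a1b was at 271, 293, 319 and 302 CPM in the IL-4eGFP+ samples (medLN 1, medLN 2, MLN 1, MLN 2) and at 60.5, 63.3, 45.9 and 42.5 CPM in the IL-4eGFP- samples. Bcl2a1d was at 135, 150, 137 and 117 CPM against 16.9, 16.6, 14.2 and 12.98 CPM. No sample of one gate reached the range of the other for either gene. The log2 fold change was 2.31 ± 0.042 for Bcl2a1b (adjusted p = 5.42e-11, edgeR) and 2.97 ± 0.068 for Bcl2a1d (adjusted p = 1.82e-10), a 4.97-fold and a 7.82-fold higher level. With the 4 Bcl2a1 genes summed into one value, the log2 fold change was 2.47. Reads that were assigned to no copy are missing from this sum as well.

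**Figure D1:**
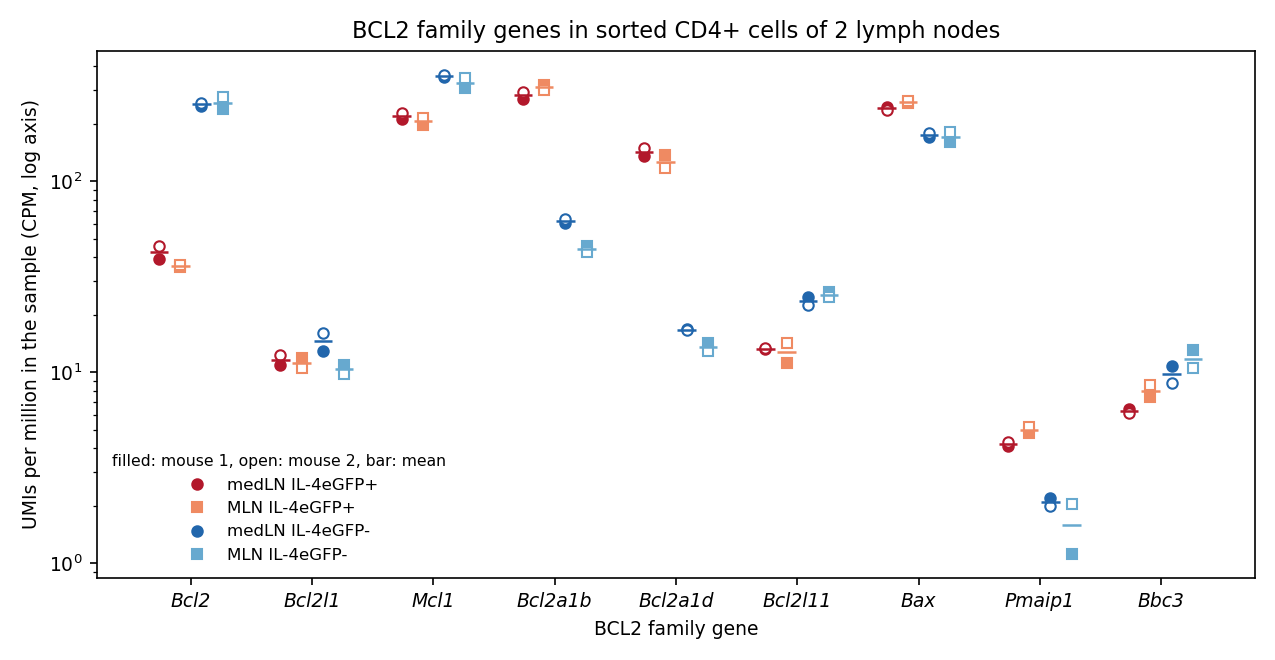
CPM (log axis) of the 9 genes in the 8 hashtag samples of the node run, by organ (colour shade and marker) and sort gate (red IL-4eGFP+, blue IL-4eGFP-), with 1 point per mouse and a bar at the mean of 2 mice. Bcl2 lay at 35.5 to 46.0 CPM in IL-4eGFP+ and 240 to 277 CPM in IL-4eGFP- samples, and Bcl2a1b and Bcl2a1d were ordered the other way.

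Of the other survival genes, Mcl1, whose short-lived protein is needed throughout T cell life, was at 198 to 229 CPM in IL-4eGFP+ and 307 to 362 CPM in IL-4eGFP- samples. It was 1.82-fold lower in IL-4eGFP+ cells (log2 fold change -0.87 ± 0.051, adjusted p = 8.53e-08, edgeR). Bcl2l1, which encodes Bcl-xL, had overlapping ranges of 10.6 to 12.3 and 9.80 to 16.1 CPM. Its log2 fold change of -0.30 had an adjusted p of 0.0298 with edgeR but of 0.208 with DESeq2, and in MLN alone it was -0.10 with an adjusted p of 0.609, and it was lost without cycling cells (0.0781), without cells with a marker of another cell type (0.0654) and without IL-4eGFP+ medLN 1, IL-4eGFP+ MLN 2, IL-4eGFP- medLN 2 or IL-4eGFP- MLN 1 (0.0780 to 0.122).

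Among the pro-apoptotic genes, Bcl2l11 was at 13.2, 13.4, 11.2 and 14.3 CPM in the IL-4eGFP+ samples and at 24.8, 22.6, 26.2 and 24.8 CPM in the IL-4eGFP- samples. The ranges did not overlap, and Bcl2l11 was 2.15-fold lower (log2 fold change -1.10 ± 0.091, adjusted p = 1.35e-06, edgeR). Bbc3, which encodes Puma, was at 6.13 to 8.59 against 8.78 to 13.1 CPM (log2 fold change -0.78 ± 0.12, adjusted p = 0.000243). Bax went the other way at 238 to 263 against 160 to 181 CPM (log2 fold change 0.34 ± 0.048, adjusted p = 9.17e-05). Pmaip1, which encodes Noxa, was low at 4.12 to 5.19 against 1.12 to 2.21 CPM, resting on 179 and 57 UMIs in all (log2 fold change 1.14 ± 0.21, adjusted p = 0.000780).

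The makeup of the samples differed between gates. Cycling cells made up 10.2% to 13.6% of the cells of IL-4eGFP+ and 1.16% to 2.01% of those of IL-4eGFP- samples. Their share of the summed UMIs was larger. In medLN 1 the IL-4eGFP+ sum held 9470487 UMIs with cycling cells and 6012234 without, and the IL-4eGFP- sum 7705872 and 7315706. Without cycling cells the log2 fold change was -0.71 for Bcl2l11 and -0.34 for Bbc3, both still called, and -2.95 for Bcl2 and 2.65 for Bcl2a1b. The 6 myeloid marker genes summed to 32.5 to 92.4 CPM in IL-4eGFP+ and 15.5 to 38.0 CPM in IL-4eGFP- samples, and the 3 NK cell genes to 25.1 to 84.6 against 9.95 to 14.6 CPM. With every cell left out that held a UMI of a marker of CD8 T cells, B cells, myeloid cells, granulocytes, basophils and mast cells, NK cells or epithelium, 6578 IL-4eGFP+ and 7546 IL-4eGFP- cells remained. The log2 fold change among them was -2.96 for Bcl2, 2.55 for Bcl2a1b and 3.27 for Bcl2a1d. In this fit 8 members were called, where the fit of all cells called 31.8% of genes higher and 30.3% lower.

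Most IL-4eGFP- cells were of a resting type, so they were divided further. Foxp3-negative IL-4eGFP- cells were called activated where 10 activation genes had more UMIs in sum than 8 naive T cell genes, and naive-like in the reverse case. This class is a range on a score and not a cell type. It left 594 activated and 6968 naive-like cells, and 214 cells with equal sums were left out. In each IL-4eGFP- sample 189 to 222 cells lay within 1 UMI of equal sums. Markers of other cells were higher in this class. The 6 myeloid genes summed to 171 to 506 CPM in activated and 0.876 to 4.99 CPM in naive-like cells, and the 4 B cell genes to 33.1 to 348 against 7.71 to 23.3 CPM. The 3 NK cell genes summed to 59.4 to 131 against 2.10 to 6.98 CPM. Of the genes of these lists with enough counts to be tested between the classes, all 4 myeloid genes (median log2 fold change 6.06), all 3 B cell genes (3.24), 1 NK cell gene (3.92) and 1 epithelial gene (2.16) were called higher, and of 6 CD4+ T cell genes 1 was lower (0.03). Left out of both comparisons below as an alternative were cells with a UMI of any such marker, which left 426 activated and 6271 naive-like cells.

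Only IL-4eGFP- cells were limited by the score in the next comparison, and all 8074 IL-4eGFP+ cells were kept. By the same score 14.0% to 17.1% of the IL-4eGFP+ cells of a sample were naive-like, and 1.02% to 3.24% held a Foxp3 UMI. Against activated IL-4eGFP- cells alone, Bcl2 was still lower in IL-4eGFP+ cells (log2 fold change -1.82, adjusted p = 3.28e-07, edgeR) and Mcl1 too (-0.67, adjusted p = 4.12e-05). Bcl2a1b and Bcl2a1d were still higher, by 0.68 and 1.08 on the log2 scale (adjusted p = 0.00313 and 2.14e-05). Bcl2l11 (-0.62, adjusted p = 0.0870) and Bbc3 (-0.74, adjusted p = 0.107) no longer passed the test. Bcl2l1 was at -0.89 (adjusted p = 0.0252) and Bax at 0.34 (0.00606). Pmaip1 turned to -0.82 (adjusted p = 0.162), with 3 to 6 UMIs in each activated sum. Without cells with a marker of another cell type the differences were -1.83 for Bcl2 (adjusted p = 5.23e-08, edgeR), 0.90 for Bcl2a1b (3.80e-05) and 1.38 for Bcl2a1d (1.35e-05), each as large as with them.

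The same genes were then compared between activated and naive-like cells inside the IL-4eGFP- library, where gate and library were constant. Bcl2 was at 122 to 149 CPM in activated and 252 to 290 CPM in naive-like cells of the 4 samples. Bcl2a1b was at 97.2 to 221 against 23.9 to 32.5 CPM, and Bcl2a1d at 56.4 to 66.95 against 5.33 to 7.87 CPM. None of these ranges overlapped. A total of 4 members were called higher, in a comparison in which 12.1% of 9608 genes were, and 1 member lower, against 8.16% of genes. The log2 fold changes were -1.20 ± 0.093 for Bcl2 (adjusted p = 4.18e-14, edgeR with the hashtag sample as block), 2.57 ± 0.15 for Bcl2a1b (3.81e-18) and 3.13 ± 0.21 for Bcl2a1d (8.11e-16). Pmaip1 was also higher (3.03 ± 0.56, adjusted p = 3.43e-05), on 17 and 21 UMIs in all. The call of Bcl2l1 (0.75, adjusted p = 0.0442) was lost with DESeq2 (0.205), without the filter on low counts (0.0631), without medLN of mouse 1 (0.270) and without MLN of mouse 1 (0.257). Mcl1 (-0.19, with a call only without medLN 1, adjusted p = 0.0284, and without the filter on low counts, 0.0103), Bcl2l11 (-0.49), Bax (0.05) and Bbc3 (0.07) did not pass the test. Without cells with a marker of another cell type the same 5 members were called, where 1178 of 9195 genes were. The log2 fold changes were then -1.19 for Bcl2, 2.51 for Bcl2a1b and 2.97 for Bcl2a1d.

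**Figure D2:**
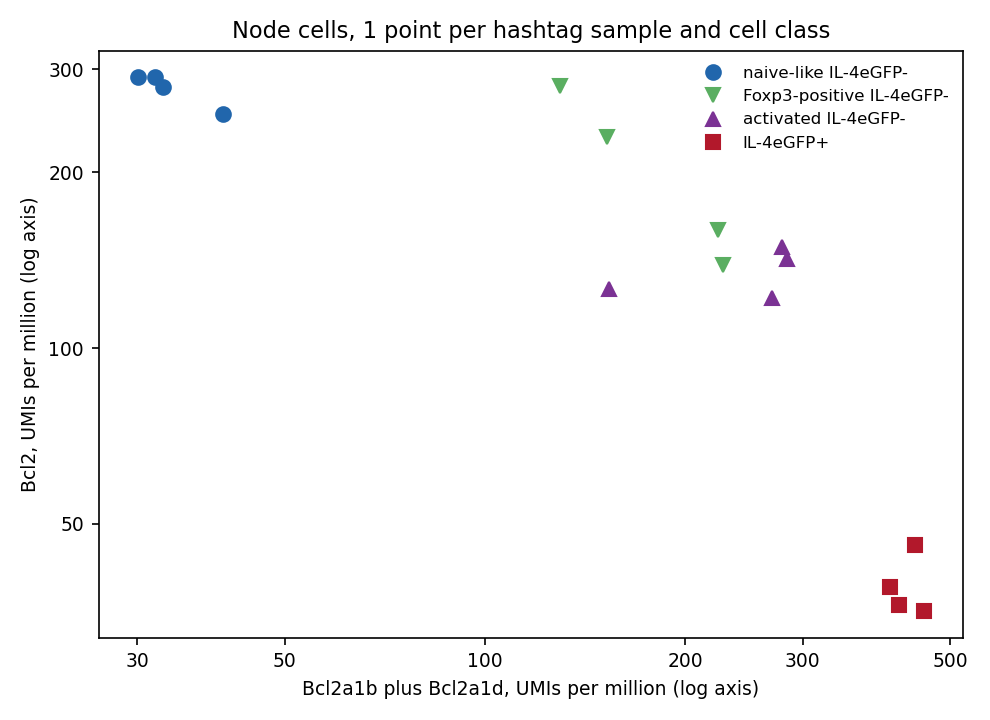
Bcl2 (vertical) against Bcl2a1b plus Bcl2a1d (horizontal), both in CPM on log axes, with 1 point for each hashtag sample and cell class of the node run. Naive-like IL-4eGFP- cells had Bcl2 at 252 to 290 CPM, activated IL-4eGFP- cells at 122 to 149 CPM and IL-4eGFP+ cells at 35.5 to 46.0 CPM, while the A1 genes were ordered the other way. Foxp3-positive IL-4eGFP- cells are plotted as well. In MLN they had Bcl2 near the naive-like range but more A1 RNA than naive-like cells.

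Foxp3 is the factor that defines regulatory T cells, and cells with a Foxp3 UMI made up 8.40% to 12.3% of the IL-4eGFP- samples. Bcl2a1b was at 92.7 to 177 CPM in these cells and 36.8 to 45.2 CPM in Foxp3-negative cells, and Bcl2a1d at 37.1 to 55.4 against 10.2 to 12.1 CPM. Both were called higher, with log2 fold changes of 1.59 ± 0.11 and 1.80 ± 0.16 (adjusted p = 7.73e-08 and 9.03e-07, edgeR with block). Of the 7776 Foxp3-negative cells, 6968 were naive-like. The activated Foxp3-negative cells (above) overlapped the range of Foxp3-positive cells for Bcl2a1b and lay above it for Bcl2a1d. These classes were not tested against each other. Of the 8 members tested 3 were higher and 1 lower, where 13.7% of 9807 genes were called higher and 10.7% lower. Bax (0.22, adjusted p = 0.0461) lost its call with DESeq2 (0.174), without the filter on low counts (0.173), without cells with a marker of another cell type (0.0616) and without any 1 of the 4 hashtag samples (0.0623 to 0.166).

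Bcl2 was the member called lower in Foxp3-positive cells (log2 fold change -0.57 ± 0.13, adjusted p = 0.00471, edgeR). The samples were uneven, since Foxp3-positive cells had 138 and 159 CPM in medLN but 230 and 280 CPM in MLN, while Foxp3-negative cells had 241 to 277 CPM throughout. The organ difference within Foxp3-positive cells was not tested. Pmaip1, with 18 UMIs in all Foxp3-positive cells, was at 2.47 to 7.46 CPM in these and 0.814 to 1.99 CPM in Foxp3-negative cells. It was left out by the filter on low counts, but was called higher without that filter (log2 fold change 1.64, adjusted p = 0.0248, edgeR) and without MLN 2 (2.07, adjusted p = 0.00817). Bcl2l1 (0.40, adjusted p = 0.232), Mcl1 (0.09, 0.427), Bcl2l11 (0.14, 0.628) and Bbc3 (0.57, 0.0843) did not pass the test. Both myeloid genes tested were lower in Foxp3-positive cells (median -3.18), 1 B cell gene was higher and 1 lower, 1 epithelial gene was higher (2.49), and of 9 dissociation response genes 4 were higher and 2 lower (median 0.47). Without cells with a marker of another cell type the log2 fold changes were 1.67 for Bcl2a1b, 1.99 for Bcl2a1d and -0.37 for Bcl2 (adjusted p = 4.73e-11, 2.78e-07 and 0.0148, edgeR). The part of the dissociation response genes was not tested.

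The comparison of lung with MLN asked how IL-4eGFP+ cells of the lung, through which the larvae pass, differed from those of the node that drains the gut. Lung cells had more RNA of both A1 genes and of Bcl-xL, but also of the BH3-only genes Bcl2l11 and Pmaip1, while Bcl2 was not called different. Of 9 members 5 were called higher and none lower, where 17.0% of 10588 genes were called higher and 14.0% lower.

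Bcl2l11 was at 48.8 and 44.1 CPM in the lung libraries and at 11.98 and 13.2 CPM in the MLN libraries, a 4.16-fold higher level (log2 fold change 2.06 ± 0.16, n = 2 libraries per organ, adjusted p = 1.40e-05, edgeR). Pmaip1 was at 46.8 and 22.9 CPM in lung against 3.60 and 3.14 CPM in MLN. Mouse 1 had the higher lung level, and both lung libraries were well above both MLN libraries (461 and 66 UMIs, 11.8-fold, log2 fold change 3.57 ± 0.36, adjusted p = 8.62e-05). Bbc3 at 11.4 and 14.7 against 10.9 and 9.66 CPM was not called (0.43, adjusted p = 0.147), nor was Bax at 262 and 271 against 247 and 252 CPM (0.23, adjusted p = 0.145).

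Among survival genes, Bcl2a1b was at 868 and 601 CPM in lung and 323 and 328 CPM in MLN (log2 fold change 1.33 ± 0.20, adjusted p = 0.000930, edgeR). Bcl2a1d was at 505 and 330 CPM in lung and 109 and 126 CPM in MLN (2.00 ± 0.22, adjusted p = 0.000141). Mouse 1 had the higher lung level of both genes. Bcl2l1 rose less, from 17.9 and 15.5 CPM in MLN to 26.6 and 28.7 CPM in lung (0.84 ± 0.15, adjusted p = 0.00284). Bcl2 was at 30.3 and 35.8 CPM in lung and 36.4 and 45.1 CPM in MLN and did not pass the test (-0.16 ± 0.15, adjusted p = 0.432). Mcl1 at 62.7 and 61.3 against 44.5 and 60.2 CPM missed the threshold (0.42, adjusted p = 0.0704) but passed it with the mouse as block (0.43, adjusted p = 0.0161), without lung 2 (0.0287), without MLN 2 (0.0295), without the filter on low counts (0.0325) and without cells with extra TCR chains (0.0283). The other 5 calls were kept in every alternative run, with log2 fold changes of 0.94 to 1.62 for Bcl2a1b, 1.53 to 2.33 for Bcl2a1d, 0.75 to 0.97 for Bcl2l1, 1.88 to 2.18 for Bcl2l11 and 2.78 to 3.95 for Pmaip1. The 4 Bcl2a1 genes summed, counted as an alternative of both A1 genes, gave 1.53.

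**Figure D3:**
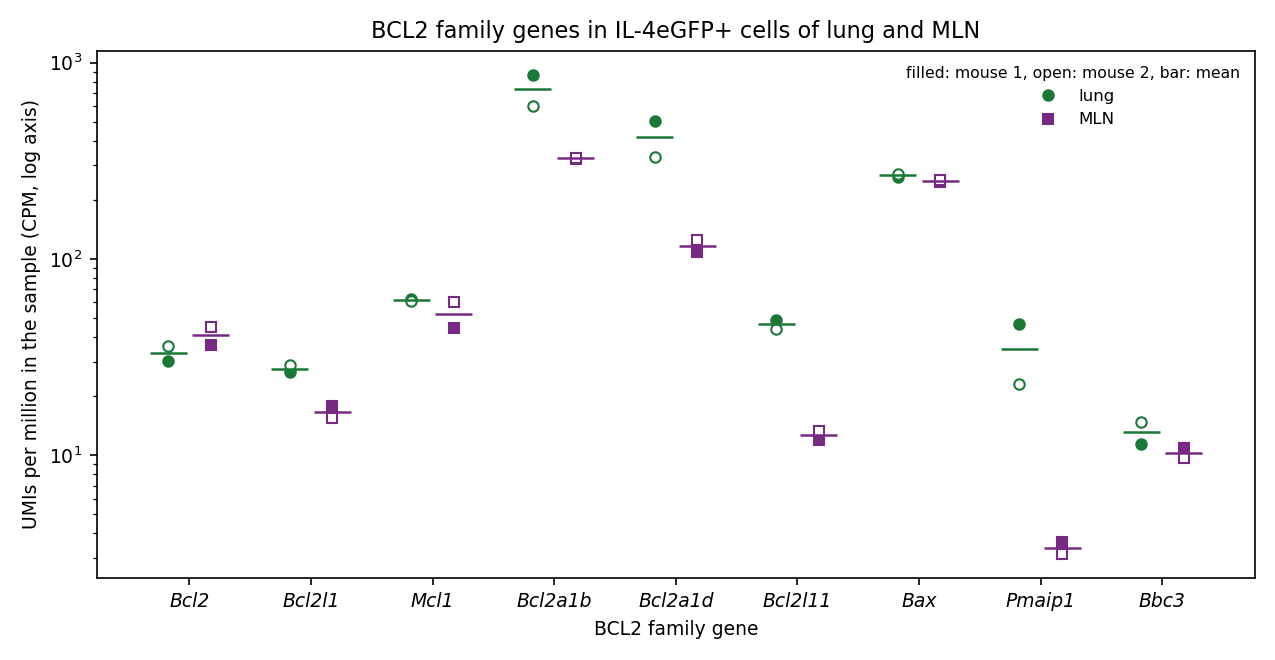
CPM (log axis) of the 9 genes in IL-4eGFP+ cells of lung (green circles) and MLN (purple squares), with filled points for mouse 1, open points for mouse 2 and a bar at the mean. Pmaip1 at 22.9 and 46.8 CPM in lung against 3.14 and 3.60 CPM in MLN shows the widest gap, and Bcl2 lies slightly lower in lung.

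IL-4eGFP+ cells of medLN, which drains the lung, were also compared with those of MLN. None of the 9 members was called with edgeR, against 1.28% of 11263 genes, and none by DESeq2. At an unadjusted p under 0.05 (edgeR) there were 2 members, against 1392 of the 11263 genes. In IL-4eGFP- cells none was called with edgeR either, against 0.178% of 10684 genes, and none by DESeq2. Here 2 members had an unadjusted p under 0.05 (edgeR), against 666 of the 10684 genes. The closest was Bcl2a1b in IL-4eGFP- cells at 60.5 and 63.3 CPM in medLN against 45.9 and 42.5 CPM in MLN (log2 fold change 0.43 ± 0.081, adjusted p = 0.0695). With the mouse as block its adjusted p was 0.00852, and the count over all genes rose from 19 to 65. Without any 1 of the 4 samples it was 0.00132 to 0.0313, whereas it was 0.119 with the Bcl2a1 genes summed and 0.920 with DESeq2.

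The organ difference of Bcl2a1b was also compared between gates. In IL-4eGFP+ cells it was -0.15 on the log2 scale (medLN against MLN), and the difference between gates was -0.57 (adjusted p = 0.0284, edgeR), where 0.156% of 11535 genes were called. Leaving out any 1 of the 8 samples gave adjusted p-values of 0.0598 to 0.168, and the 4 Bcl2a1 genes summed gave 0.141.

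Cycling cells, called from at least 2 of 7 cell cycle genes, were 9.52% and 10.3% of lung, 5.08% and 4.91% of MLN cells in the first run. They held more UMIs per cell than other cells. In lung 1 the sums held 1490593 UMIs from 103 cycling and 6991588 from 979 other cells. In MLN 1 they held 1945271 UMIs from 125 cycling and 12492607 from 2337 other cells. A lower CPM in cycling cells thus does not show fewer UMIs per cell, and counts per cell were not tested. Among the 9022 genes tested 20.0% were called lower by CPM in cycling than in other cells of the same library and 19.4% higher. Of 9 members 6 were called lower and none higher. Bcl2l11 had the largest of these differences at 27.5, 13.1, 9.25 and 5.73 CPM in cycling cells of lung 1, lung 2, MLN 1 and MLN 2 against 53.3, 51.4, 12.4 and 14.3 CPM in other cells (log2 fold change -1.03 ± 0.22, adjusted p = 0.000798, edgeR with the library as block). Mcl1 (-0.56), Bcl2a1b (-0.56), Bcl2a1d (-0.44), Bax (-0.32) and Bbc3 (-0.94) were the other 5, while Bcl2 (-0.30, adjusted p = 0.197), Bcl2l1 (0.07, 0.780) and Pmaip1 (-0.27, 0.426) did not pass the test. All 6 CD4+ T cell genes were lower in cycling cells too (median -0.54), as were 9 of 14 dissociation response genes (median -0.50), beside a median of -0.44 for the 9 members and -0.08 for all genes. The part of these genes in the members' values was not tested. Calls were lost without lung 1 for Bcl2a1d (adjusted p = 0.304) and Bax (0.0933), without lung 2 for Bcl2a1d (0.0792), Bax (0.131) and Bbc3 (0.108), without MLN 1 for Bbc3 (0.229) and without MLN 2 for Bax (0.0687), and Bcl2 gained one without MLN 1 (0.0386). Without the block none of the 6 was called, and DESeq2 called 3.

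Cells of T cell clones found more than once in a mouse were compared with cells of clones found once. None of the 9 members was called by edgeR, against 0.195% of 9757 genes, and none by DESeq2. At an unadjusted p under 0.05 (edgeR) there were 6 members, against 598 of the 9757 genes. Bcl2 had the largest log2 difference, -0.64 (adjusted p = 0.148), and Bcl2a1b was at 0.19 (0.148). Both were called by edgeR without the filter on low counts, Bcl2 at -0.66 (adjusted p = 0.000273) and Bcl2a1b at 0.17 (0.0367).

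The share of cells with at least 1 UMI was compared with the sums. Each cell was thinned to 1500 UMIs, because median depth was 4971 to 6910 UMIs in the first run and 3166 to 3667 in the second. This left out 4 to 15 shallower cells per sample of the first run and 39 to 84 of the second. After thinning, 4.24% to 5.72% of IL-4eGFP+ and 28.8% to 31.5% of IL-4eGFP- node cells held a Bcl2 UMI (unthinned 11.3% to 14.1% and 46.4% to 52.0%). For Bcl2a1b the thinned shares were 32.5% to 34.5% and 4.23% to 6.37% (unthinned 53.6% to 58.7% and 9.92% to 13.4%). In lung 63.3% and 51.9% of thinned cells held a Bcl2a1b UMI, against 33.2% and 32.8% in MLN (unthinned 89.6% and 83.9%, and 67.9% and 67.2%). For Bcl2 between gates, and for Bcl2a1b in both comparisons, the order was that of the sums. Others did not keep it, since thinned shares overlapped for Bbc3 between gates (1.26% to 1.80% and 1.46% to 1.77%) and for Mcl1 between lung (8.19% and 11.7%) and MLN (6.82% and 9.87%). No cell type that should lack these genes was in the samples, so the part of free RNA in these shares was not tested.

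**Figure D4:**
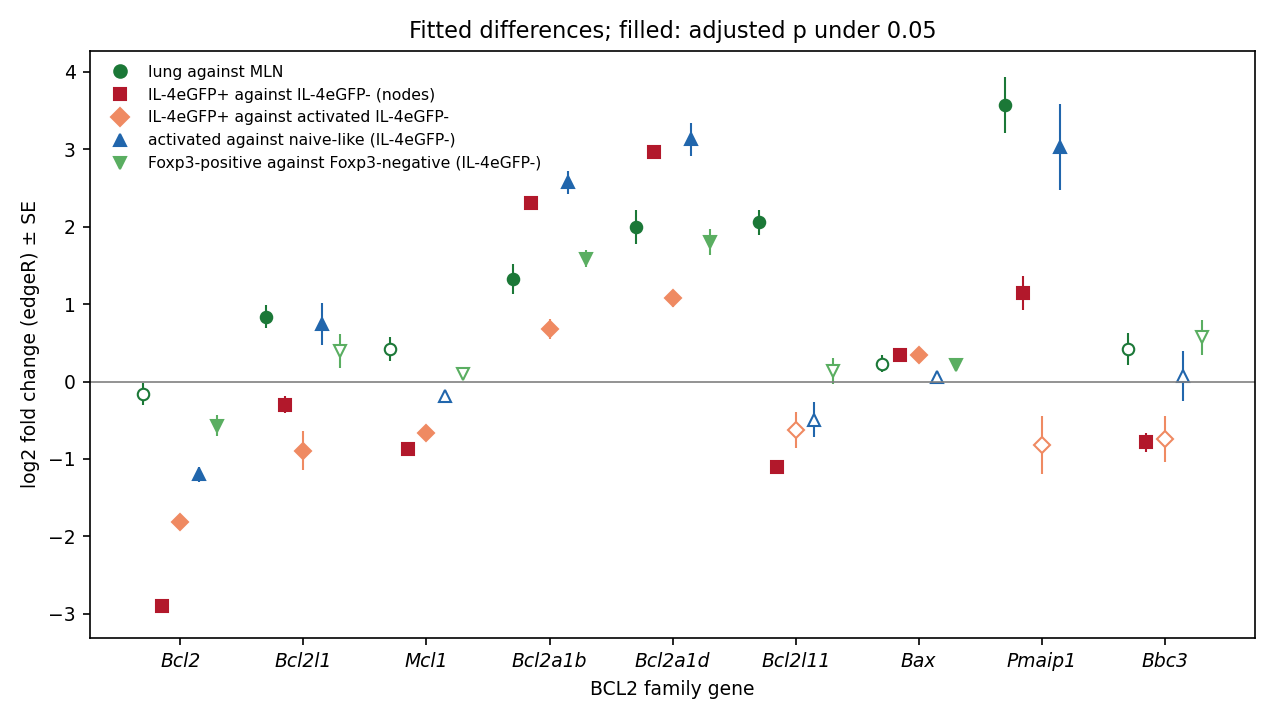
Log2 fold change (edgeR) of the 9 genes with its standard error in 5 comparisons, by colour and marker (lung against MLN, IL-4eGFP+ against IL-4eGFP-, IL-4eGFP+ against activated IL-4eGFP-, activated against naive-like and Foxp3-positive against Foxp3-negative), with filled symbols where the adjusted p was under 0.05. Bcl2 was at -2.90 in the gate comparison and was -0.16 between lung and MLN, while Bcl2a1b and Bcl2a1d were above 0 in these 5, and at -0.56 and -0.44 in cycling cells, which are not plotted.

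Other genes of the apoptosis and survival pathways were followed on lists. Their counts between gates stand beside 31.8% of all genes tested called higher and 30.3% lower. Of 17 other family genes, 12 were tested in the gate comparison, of which 5 were higher and 1 lower in IL-4eGFP+ cells (median log2 fold change 0.47 against -0.01 over all genes). Bad, a BH3-only gene, was at 45.1 ± 3.69 against 22.6 ± 0.766 CPM (SD, n = 4 samples of 2 mice per gate, log2 fold change 0.81). Of 10 apoptosome and caspase genes 7 were higher and 1 lower (median 0.29). Apaf1, the scaffold of the apoptosome, was at 18.04 ± 0.855 against 8.61 ± 0.870 CPM (0.88).

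All 4 FOXO genes were lower in IL-4eGFP+ cells (median -1.20), a list of 2 FOXO factors with Klf2 and Sesn1 as targets. Foxo1 was at 71.8 ± 6.50 against 129 ± 6.47 CPM (-1.04) and Sesn1 at 19.8 ± 1.48 against 60.8 ± 4.36 CPM (-1.81). Of 10 genes of survival cytokine receptors and their signalling, 6 were lower and 1 higher. Il7r, the IL-7 receptor, was at 86.0 ± 22.1 against 215 ± 14.6 CPM (-1.54), and Il4ra, the IL-4 receptor, at 33.4 ± 2.18 against 173 ± 16.0 CPM (-2.56). NF-κB genes were split, with 3 higher and 3 lower of 7, as were p53 pathway genes, with 3 higher and 2 lower of 9. Over all genes 31.8% were higher and 30.3% lower, for these and the other lists of this comparison. Of the 8 death receptor genes 3 were lower and none higher, with Tnfrsf1a at 16.5 ± 2.19 against 39.4 ± 1.21 CPM (-1.45). Of the 4 inhibitor of apoptosis genes 1 was higher and 2 lower, and the higher one, Birc5 (2.63), is also one of the cell cycle genes.

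The same lists were counted for lung against MLN, where 17.0% of all genes tested were called higher and 14.0% lower. Of 7 NF-κB genes 5 were higher than in MLN and none lower (median 1.42 against -0.01 over all genes), with Tnfaip3, the feedback inhibitor A20, at 734 ± 10.4 against 30.5 ± 7.22 CPM (SD, n = 2 per organ, log2 fold change 4.68) and Nfkbia, which encodes IκBα, at 1864 ± 398 against 219 ± 6.74 CPM (3.23). Of 9 p53 pathway genes 4 were higher and none lower, led by Cdkn1a, the cell cycle inhibitor p21, at 127 ± 54.8 against 3.84 ± 0.924 CPM (5.34). Il7r was higher in lung at 393 ± 37.6 against 79.5 ± 31.2 CPM (2.48), as was Pim1, a survival kinase, at 482 ± 40.6 against 67.5 ± 2.03 CPM (2.97). Fasl, the ligand of the death receptor Fas, was at 57.8 ± 9.96 against 10.2 ± 0.504 CPM (2.59). Of the other lists, 3 were higher and 2 lower of 11 other family genes, 1 and 3 of 10 apoptosome and caspase genes, 3 and 2 of 8 death receptor genes, 2 and 1 of 4 inhibitor of apoptosis genes, 6 and 1 of 10 cytokine receptor genes and 1 and 0 of 4 FOXO genes. All 14 dissociation response genes were higher in lung (median 3.67), and their part in these values was not tested.

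Over the 8 node samples the genes most like each member were found by Pearson's r of log2(CPM + 1), as a description, since the samples share 2 libraries and fall into 2 gates. Those most like Bcl2 were Snhg1, Nod1 and Klf13 (r = 0.997 to 0.998). Those most like Bcl2a1b were Stard4, Unc119 and S100a11 (r = 0.999 each), and those most like Bcl2a1d were Dpy30, Supt16 and Lpgat1 (r = 0.998 to 0.999). Socs1, Glipr2 and 5830468F06Rik were most like Mcl1 (r = 0.994 to 0.995), and Spice1, Nfam1 and Rps26 most like Bcl2l11 (r = 0.992 to 0.993). For Bax they were Psmc5, Eif6 and Gpnmb (r = 0.996 each), and for Pmaip1 Sirt2, Rragc and Srprb (r = 0.989 to 0.991). Bcl2l1 and Bbc3 had looser matches, with Gm5577, Cbx2 and Prpf39 for Bcl2l1 (r = 0.942 to 0.967) and Nudt16, Cers6 and Ostf1 for Bbc3 (r = 0.955 to 0.967).

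Levels in the 2 runs were not compared by a test, because mice, libraries and software versions differed. Mcl1 in IL-4eGFP+ MLN cells was at 44.5 and 60.2 CPM in the first run and 198 and 215 CPM in the second, whereas Bcl2 was at 36.4 and 45.1 CPM and 35.5 and 36.3 CPM. Overlapping annotations limit single values, since Bcl2a1b and Bax each overlap another protein-coding gene model on the same strand, and Bcl2 and Bcl2a1d each overlap an antisense gene.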

How the data were processed

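Single-cell gene expression was measured in 4 lung and MLN libraries and 2 hashtagged node libraries. The deposited count matrices hold UMI counts per gene and cell, which the authors made with Cell Ranger (versions 2.1.1, 3.0.1 and 6.1.2 in the submitters' processing notes) on mm10. Both sequencing runs of a lung or MLN library were combined by the authors, and both gates of the node run were aggregated. Cells were given their gate by the library number in the barcode. The deposited TCR tables hold UMI counts per contig. The members and lists were chosen with earlier results of these data known.

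Cells had over 500 UMIs, over 500 genes, under 7% mitochondrial UMIs and a novelty over 0.8, and first-run cells a productive TCR α and β chain (4714 cells). Hashtags were called with HTODemux (Seurat 5.3.0, quantile 0.99), which left 16748 singlets. Doublets were removed only by hashtag. The 2 node libraries shared 155 barcodes and pairs of first-run libraries 0 to 10.

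Counts were summed per library or hashtag sample without TCR genes, and tested with edgeR 4.0.16 (filterByExpr, TMM, quasi-likelihood F test, adjusted p under 0.05), with DESeq2 1.42.0 as an alternative. Replicates are mice, with 2 in each run. Replicate numbers name the same mouse across organs, so the blocked fit was paired by animal. Deviations from group means correlated at 0.0398 between organs in the first run, 0.235 and 0.117 in the node gates and 0.116 and 0.125 between gates. Sums by cell class took cells of the same sample and were fitted with the sample as block, without the genes that defined the class. Named list genes passed the test with a mean of at least 10 CPM, at most 15 per comparison by size. One of them is not reported here. Intervals of shares (Clopper-Pearson, 95%) cover counting error only. The sum of the 4 Bcl2a1 genes, the fits without cells with a marker of another cell type and the alternatives of the organ difference by gate were chosen after seeing the data. Fits were tested on simulated data. Promoters came from RefSeq, GRCm38.p6. R was 4.3.3 and scipy 1.17.1.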

Additional observations from a re-analysis of the deposited data

Results flagged for a closer look

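The difference between medLN and MLN in Bcl2a1b was called different between the sort gates in the main fit. The gap was -0.57 on the log2 scale (the organ difference in IL-4eGFP+ cells minus that in IL-4eGFP- cells), by the interaction term of the edgeR fit over 8 samples (adjusted p = 0.0284). It was not called with the Bcl2a1 genes summed. Within a gate the main fits did not call the organ difference (adjusted p = 0.319 in IL-4eGFP+ and 0.0695 in IL-4eGFP- cells, edgeR). DESeq2 gave an adjusted p of 0.0139 and the fit with the replicate block 0.00536, whereas no fit without 1 of the samples passed the threshold. Of the 18 sets of 4 samples examined for a sample far from the others, none held one.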

How the results depend on the processing

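Over the 9 comparisons, 754 of 846 alternative values of members kept their direction and their side of the threshold, 48 lost a call, 15 gained one and 29 changed sign. The Bcl2a1 genes summed were counted as an alternative of both Bcl2a1b and Bcl2a1d. Counts of genes called moved by over 1.5 times as follows. With DESeq2 they were 1833 (lung against MLN, from 3284), 37 (organ difference by gate, from 18), 1258 (activated against naive-like, from 1948) and 12 (clones, from 19). Without the filter on low counts they were 47 (IL-4eGFP+ medLN against MLN, from 144), 2 (IL-4eGFP- medLN against MLN, from 19), 68 (organ difference by gate) and 167 (clones). With the replicate block they were 65 (IL-4eGFP- medLN against MLN) and 81 (organ difference by gate), and with no replicate block 1737 (cycling cells, from 3551) and 0 by edgeR (clones, with 76 at an unadjusted p under 0.05 and 12 called by DESeq2 with the block). With 400 cells drawn from each library, 2097 genes were called between lung and MLN, and with IL-4eGFP- cells limited to activated cells 1972 between gates (from 7162). Without cells with a marker of another cell type they were 1178 (activated against naive-like) and, with IL-4eGFP- cells limited to activated cells, 1252 between gates. The block changed the calls of Mcl1 (lung against MLN), of Bcl2a1b (IL-4eGFP- medLN against MLN) and of the 6 members called in cycling cells, as given in the report, and no other call of a member.

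Leaving out 1 sample gave 1907 (without MLN 1) to 3678 genes between lung and MLN, 13 (without medLN 1) to 191 between IL-4eGFP+ medLN and MLN, where 49 were left without medLN 2, 98 to 194 between IL-4eGFP- medLN and MLN (each of the 4 above the full set), 4 to 13 for the organ difference by gate, and 6 (without MLN 1) to 27 for clones, where 10 were left without lung 2. A group left with 1 sample was assumed to vary like the others.

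Log2 values that changed sign were small or on few UMIs. Bcl2l1 in IL-4eGFP+ medLN against MLN was -0.062 without cycling cells, Bcl2a1d there was -0.053 with the Bcl2a1 genes summed, Bax in activated cells was -0.013 without the filter, and Pmaip1 between gates was -0.82 against activated cells. Without cells with a marker of another cell type, Pmaip1 there was -0.87 and Bbc3 in activated cells -0.49. Without 1 sample, IL-4eGFP+ medLN against MLN ranged from -0.045 to 0.11 (Bcl2l1) and -0.12 to 0.25 (Bcl2l11), and IL-4eGFP- medLN against MLN from -0.20 to 0.040 (Bcl2), -0.025 to 0.18 (Mcl1), -0.12 to 0.095 (Bax) and -0.025 to 0.86 (Pmaip1). The difference by gate ranged from -0.10 to 0.12 (Mcl1), -0.19 to 0.016 (Bcl2a1d), -0.22 to 0.013 (Bax) and -0.17 to 0.11 (Bbc3). Cycling cells ranged from -0.043 to 0.17 (Bcl2l1) and -0.56 to 0.24 (Pmaip1), Foxp3-positive cells from -0.071 to 0.22 (Bcl2l11), activated cells from -0.25 to 0.22 (Bbc3) and clones from -0.061 to 0.14 (Bcl2l1). The cause was not tested. Few UMIs limit Pmaip1, and few cells limit the cycling class (37 to 125 per sample) and the activated class (115 to 173).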
